A study of Mus musculus with 2 samples.

Results

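The genes described here are the translation initiation factors and their named regulators: every protein-coding gene of the annotation whose symbol begins with Eif and a digit from 1 to 6. The rule took 55 of 22028 protein-coding genes. Of these, 52 had reads, 48 had the 10 reads over both libraries that the test below required, and 4 had fewer (Eif2ak2, Eif2ak3, Eif2ak4 and Eif5a2). No read was listed for Eif2s3y, Eif4e1b or Eif4ebp3. The data are long-read RNA libraries of the gastrocnemius, a calf muscle, from female B6CASTF1/J mice, the F1 offspring of C57BL/6J and CAST parents, aged 25 days. The labels give 1 group with 2 biological replicates (animals 3 and 4, 2 µg of RNA each, the same donor record), so no conditions can be contrasted: levels and isoforms in the muscle are described, with the differences between its libraries. Replicate 1 held 1069771 mouse reads and replicate 2 held 1557594. Levels are given in CPM, a gene's reads per 1000000 mouse reads. A count of 0 allows a level of up to 2.80 CPM in replicate 1 and 1.93 CPM in replicate 2.

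Translation initiation places the small ribosomal subunit, with the initiator tRNA, on the start codon of an mRNA. The cap-binding complex eIF4F (the cap binder eIF4E, the scaffold eIF4G and the helicase eIF4A) brings the mRNA, eIF3 bridges mRNA and subunit, the GTP-binding eIF2 carries the tRNA, and eIF1, eIF1A and eIF5 govern which codon is accepted. Muscle changes its rate of protein synthesis with feeding, load and stress mainly at 2 of these steps, the eIF4E step, held back by the 4E-binding proteins under the kinase mTORC1, and the recharging of eIF2 by eIF2B, held back by the eIF2α kinases.

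The factors that choose start codons are themselves translated from start codons of unequal context. The contexts shown here are those of the leading annotated model, read from the GENCODE M21 transcripts (mm10), 9 bases before the start codon to 3 after it, with the start codon in capitals. The first 3 lack both favourable positions, a purine at position -3 and a G at +4 (counted with the first base of the start codon as +1), the fourth does not begin with ATG, and Eif5a, which has both positions, is given for comparison.
Eif1: tcgtatcgtATGtcc
Eif1b: tagtgtcgcATGtcc
Eif3b: cgcgggcccATGcag
Eif4g2: gccgccaaaGTGgag
Eif5a: cctcttaaaATGgca

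Eif1, Eif1b and Eif3b were 3 of 47 members with neither favourable position (6.38%), beside 461 of 7858 genes with a leading annotated coding model (5.87%). A purine stood at -3 in 42 of 47 members (89.4%) and in 87.6% of all such genes, and a G at +4 in 48.9% and 53.9%, so the members as a set lay near the rest of the genes. Eif1, whose product rejects poor start codons, is the most read of all members. Eif4g2, the eIF4G relative also called DAP5, is annotated to begin at GTG and was 1 of 10 among the 7858 genes whose annotated start was not ATG.

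Several members were read as transcript isoforms that differ by a short coding stretch. The stretches below carry 15 coding bases on each side in lower case, and capitals mark what 1 isoform has and the other lacks. In Eif4a2 and Eif4g1 it is 3 bases at the start of an exon. In Eif4h and Eif3m it is a whole exon. Reads were few for Eif4g1-205 (2 and 3) and for the Eif3m chain without the exon (6 and 3).
Eif4a2-203 (chr16:23108585-23108587, plus strand): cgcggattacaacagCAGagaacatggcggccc
Eif4g1-205 (chr16:20681734-20681736, plus strand): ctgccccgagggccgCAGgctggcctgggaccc
Eif4h-205 (chr5:134624441-134624500, minus strand): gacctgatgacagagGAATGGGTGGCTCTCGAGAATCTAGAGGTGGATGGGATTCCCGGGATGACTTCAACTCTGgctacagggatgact
Eif3m-201 (chr2:105001271-105001414, minus strand): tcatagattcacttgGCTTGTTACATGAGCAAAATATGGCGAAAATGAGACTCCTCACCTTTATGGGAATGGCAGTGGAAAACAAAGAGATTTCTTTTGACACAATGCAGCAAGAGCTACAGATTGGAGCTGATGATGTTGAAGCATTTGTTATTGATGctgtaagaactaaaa

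The members together took 5547 reads (0.519% of mouse reads) in replicate 1 and 7630 (0.490%) in replicate 2, a mean of 0.504% ± 0.0203 (SD, n = 2). The level of single members ran from 0.788 CPM (Eif5a2 and Eif2ak2) to 716 CPM (Eif1), as means of the libraries. The 5 most read, Eif1, Eif5a, Eif4g2, Eif4a2 and Eif2s2, held 41% of member reads in replicate 1 and 45.5% in replicate 2, and the 20 most read held 76.4% and 76.7%. Over the 52 members with reads, the levels of the libraries correlated across genes with a Pearson r of 0.959 on log2(CPM + 1), a description in which genes share the libraries. Per kilobase of the leading model, Eif1 (542 CPM per kb) and Eif5a (375) also came first, and Eif4a2 (136) and Eif2s2 (117) next, whereas Eif4g2, with a model of 7995 bases, fell to place 16 with 45.3 CPM per kb. That place depends on the length of the annotated model. The next most read Eif4g2 chain, of 21 exons with 57 and 42 reads, has 5050 bases. Unannotated chains of 22 exons have 5170 and 3738.

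**Figure D1:**
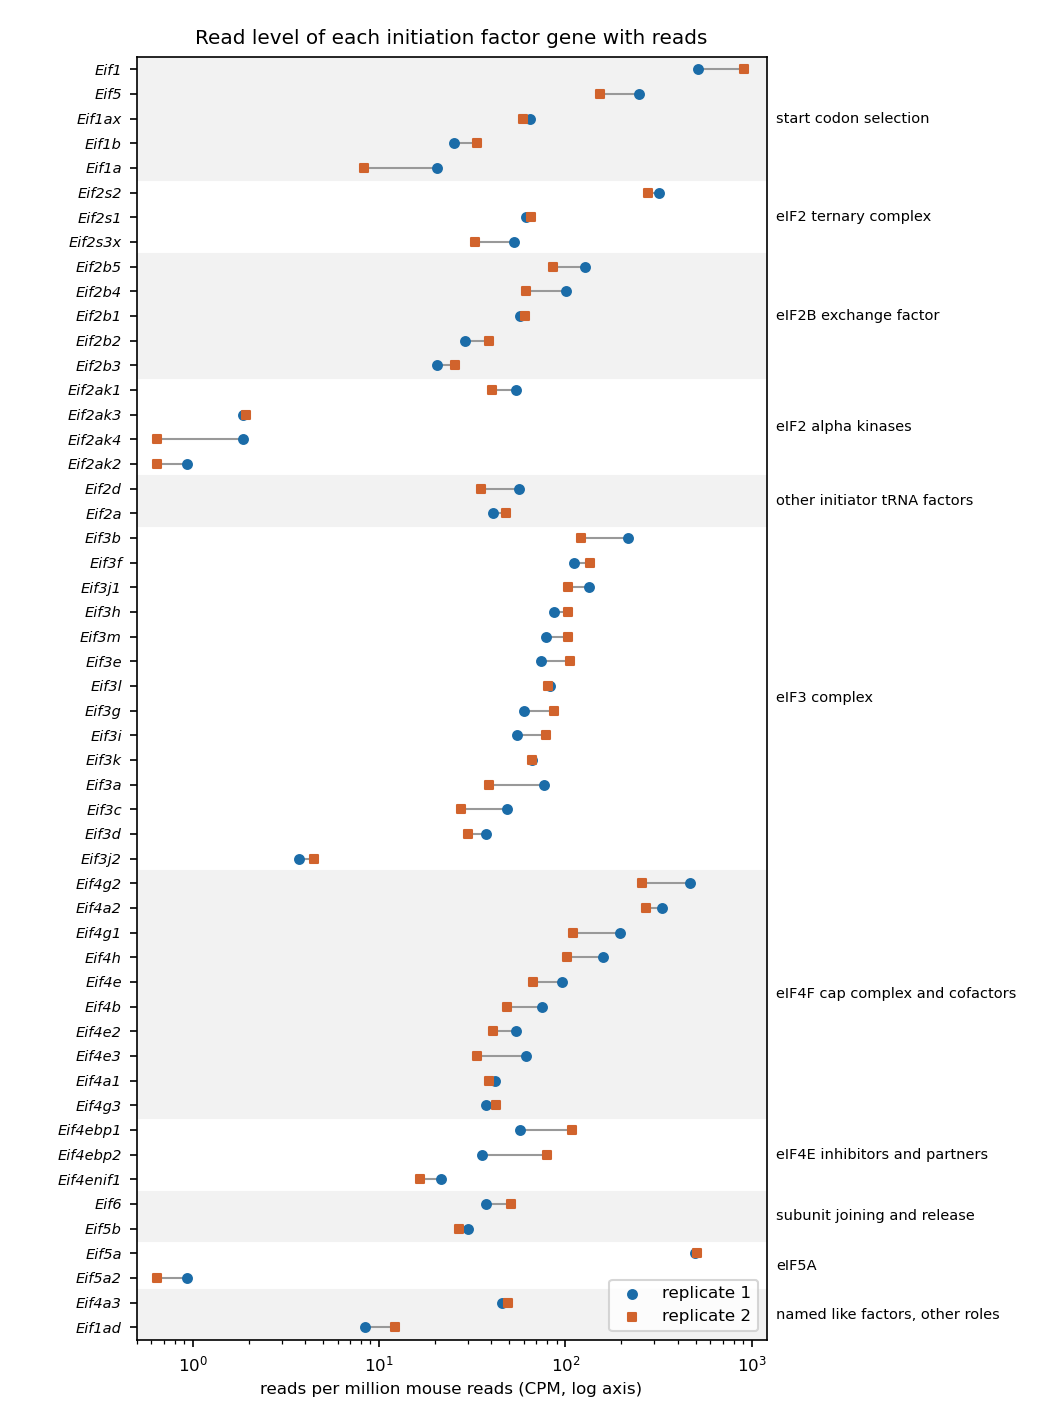
Level of each of the 52 members with reads, in CPM on a log axis, grouped by role, with replicate 1 as circles and replicate 2 as squares. Eif1 leads with 518 and 914 CPM, Eif5a follows with 498 and 509, and all subunits of eIF3 other than Eif3j2 lie between 27.6 and 217 CPM.

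Library differences were tested gene by gene with Fisher's exact test, two-sided, of the gene's reads against the rest of the library, with Benjamini-Hochberg adjustment over all 8892 genes with 10 or more reads and a threshold of 0.05. The test compares the reads of 2 libraries, not conditions. It called 18 of 48 members (37.5%), beside 26.0% of all genes: 4 were higher in replicate 2 (11.1% of all genes were) and 14 lower (14.9% of all genes). The log2 ratio of replicate 2 to replicate 1 had a median of -0.12 over the 48 members and -0.18 over all genes tested. The count moved with the scaling: trimmed-mean (TMM) scaling, which shifted the median of all genes by 0.17 on the log2 scale, gave 8 higher and 8 lower (14.1% and 9.78% of all genes), and DESeq2 size factors, which shifted it by 0.22, gave 9 higher and 6 lower (15.2% and 8.84% of all genes). With only reads of annotated chains counted, 2 members were higher and 17 lower (8.69% and 21.9% of all genes), and with only complete chains 5 and 10 (11.6% and 15.0% of all genes). When edgeR's exact test assumed a spread of 20% between animals (dispersion 0.04), 0 of 48 members passed, 3 had an unadjusted p under 0.05, and 2.29% of all genes passed.

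Transcript length moved with these differences. Members with a leading model of up to 1500 bases had a median log2 ratio of 0.39 (11 members), those of 1500 to 3000 bases -0.07 (22 members) and longer ones -0.42 (15 members), and the same medians over all genes were 0.56, -0.18 and -0.54. After a lowess trend on length was taken out of all genes, an exact binomial test called 5 members higher (7.55% of all genes) and 6 lower (5.59% of all genes). Of the 18 members called, 3 were called in the same direction under all 5 alternatives of scaling, read class and length: Eif1 and Eif4ebp1, higher in replicate 2, and Eif3b, lower.

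**Figure D2:**
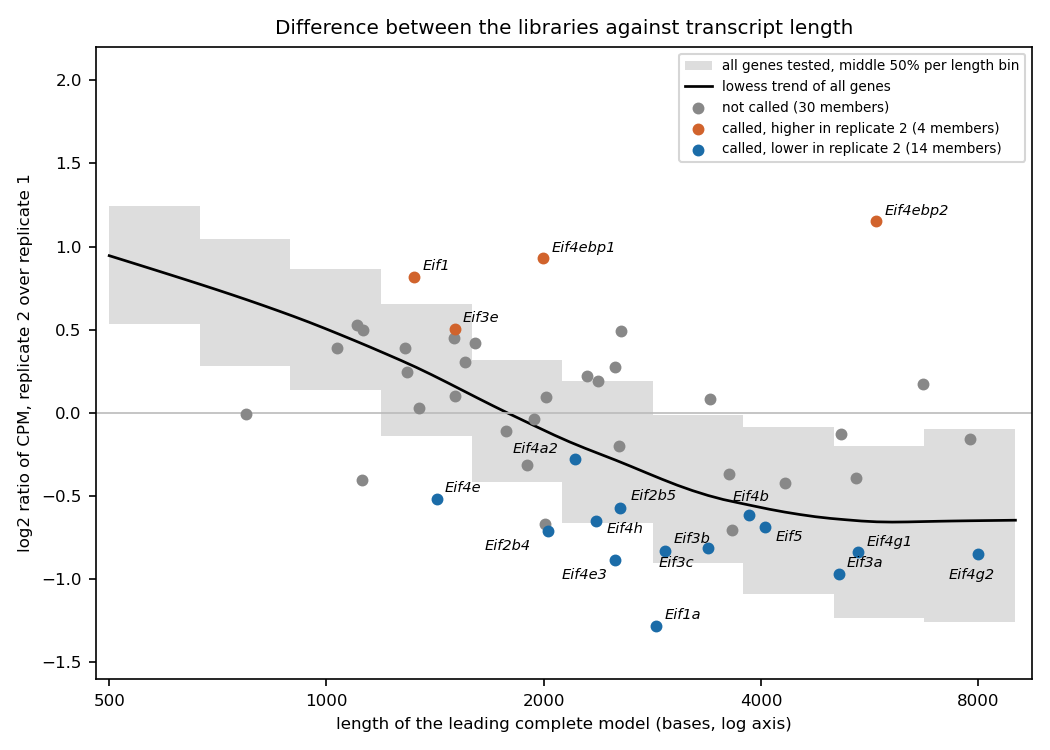
Log2 ratio of CPM (replicate 2 over replicate 1) of the 48 tested members against the length of the leading complete model, with the middle 50% of all genes per length bin in grey and their lowess trend as a line. Eif1 (0.82), Eif4ebp1 (0.93) and Eif4ebp2 (1.15) lie above the trend. So does the long member Eif4g3 (0.17), whose length rests on 5 and 3 complete reads. Eif4g2 (-0.85) and Eif4g1 (-0.84) lie close to the trend. The length of Eif4g1 rests on an unannotated chain with 18 and 8 reads.

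Start codon selection was led by Eif1 (chromosome 11, 100319885 to 100322096, plus strand), which encodes the factor that keeps the scanning subunit open until a start codon is met. It had 554 reads in replicate 1 and 1424 in replicate 2, 716 ± 280 CPM, and was higher in replicate 2 with a log2 ratio of 0.82 (95% interval 0.68 to 0.96, adjusted p = 3.68e-30, Fisher's exact test). Under the alternatives its ratio lay between 0.54 (length trend removed) and 1.04 (DESeq2 size factors). Its relative Eif1b, whose coding sequence is 81.4% identical, had 27 and 52 reads, so that Eif1 held 95.4% and 96.5% of the reads of the pair, and 19.1 times the level per kilobase. Eif5, the factor that makes eIF2 hydrolyse its GTP, had 265 and 240 reads (201 ± 66.2 CPM) and was lower in replicate 2 (log2 ratio -0.68, adjusted p = 1.58e-06), a call lost with the length trend removed (-0.11). The copies of eIF1A were unequal: the X-linked Eif1ax had 69 and 92 reads (log2 ratio -0.13, not called), and the autosomal Eif1a 22 and 13 (14.5 ± 8.64 CPM, log2 ratio -1.28, adjusted p = 0.0387). That call for Eif1a held in 1 of the 5 alternatives.

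The 3 subunits of eIF2, which carries the initiator tRNA, were not read alike, although the protein holds 1 of each. Eif2s2, the β subunit (chromosome 2, 154871410 to 154892935, minus strand), had 340 and 431 reads (297 ± 29.1 CPM, log2 ratio -0.20). The α subunit Eif2s1, whose phosphorylation shuts initiation down, had 66 and 102 reads, and the γ subunit Eif2s3x had 57 and 51. Per kilobase Eif2s2 stood 6.26 times above Eif2s1 and 9.92 times above Eif2s3x, in both libraries the highest of the 3. None of the 3 was called between the libraries, though counting only reads of annotated chains called Eif2s2 and Eif2s3x lower in replicate 2, and counting only complete chains called Eif2s3x lower. Eif2s3y, the Y-linked copy of the γ subunit, had no read in these female animals.

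The exchange factor eIF2B, which reloads eIF2 with GTP, had reads for all 5 subunits. Eif2b5, the catalytic ε subunit, was the most read with 137 and 134 (107 ± 29.7 CPM, log2 ratio -0.57, adjusted p = 0.00759), followed by Eif2b4, the δ subunit, with 108 and 96 (81.3 ± 27.8 CPM, log2 ratio -0.71, adjusted p = 0.00321). Both were lower in replicate 2. With the length trend removed only Eif2b4 of the 5 subunits passed (-0.60), and with DESeq2 size factors none did. Eif2b1 (61 and 95 reads), Eif2b2 (31 and 61) and Eif2b3 (22 and 40) were not called. Eif2b4 shares its locus with Snx17 on the other strand (18 and 18 reads).

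Of the 4 kinases that phosphorylate eIF2α, only the heme-regulated Eif2ak1 reached the 10 reads of the test, with 58 and 63 (47.3 ± 9.74 CPM, log2 ratio -0.42, not called). Eif2ak3 (PERK, the sensor of the endoplasmic reticulum) had 2 and 3 reads, Eif2ak4 (GCN2, the sensor of uncharged tRNA) 2 and 1, and Eif2ak2 (PKR, the sensor of double-stranded RNA) 1 and 1. Their leading models are 4313 to 5159 bases long, and that of Eif2ak1 4325 bases. These lengths rest on few complete reads, 2 and 2 for Eif2ak3 and 1 and 0 each for Eif2ak4 and Eif2ak2, beside 56 and 56 for Eif2ak1. Aimp2 lies over Eif2ak1 on the other strand with 127 and 195 reads. The other factors that can deliver an initiator tRNA, Eif2a (44 and 75 reads) and Eif2d (60 and 55), were not called, with log2 ratios of 0.22 and -0.67.

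All 13 genes for the subunits of eIF3, and Eif3j2, a copy of Eif3j1, had reads in both libraries. Eif3b, a core scaffold subunit (chromosome 5, 140419328 to 140443360, plus strand), was the most read with 232 and 190 (169 ± 67.1 CPM) and was lower in replicate 2 (log2 ratio -0.83, adjusted p = 7.19e-08). Eif3a, the largest subunit, had 82 and 61 reads (57.9 ± 26.5 CPM, log2 ratio -0.97, adjusted p = 6.94e-04), and Eif3c 52 and 43 (38.1 ± 14.9 CPM, log2 ratio -0.81, adjusted p = 0.0285). The calls in eIF3 were thus 3 lower of 14, beside 14.9% of all genes, and 1 higher, beside 11.1% of all genes, shares near the background. The higher one was Eif3e, with 79 and 164 reads (89.6 ± 22.2 CPM, log2 ratio 0.51, adjusted p = 0.0373).

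The remaining 10 genes of eIF3 were not called. Eif3f had 119 and 210 reads (123 ± 16.7 CPM, log2 ratio 0.27), Eif3j1 144 and 160 (119 ± 22.5 CPM, -0.39) and Eif3h 93 and 161 (95.1 ± 11.6 CPM, 0.25). Eif3m had 84 and 161 reads (90.9 ± 17.6 CPM, log2 ratio 0.39), Eif3l 88 and 125 (81.3 ± 1.42 CPM, -0.04) and Eif3g 64 and 135 (73.2 ± 19.0 CPM, 0.53). Eif3f and Eif3h carry MPN domains and Eif3l and Eif3m PCI domains of the complex's core, Eif3g and Eif3i sit with Eif3b, and Eif3j is loosely bound. Eif3i (59 and 122 reads), Eif3k (71 and 103) and Eif3d (40 and 47), whose protein can bind the cap of some mRNAs, lay lower, and Eif3j2 had 4 and 7 reads. The coding sequences of Eif3j1 and Eif3j2 are 99.2% identical, so reads could be shared between them. The directions within eIF3 depended on the scaling: TMM and DESeq2 scaling each called 5 higher (Eif3e, Eif3f, Eif3g, Eif3i and Eif3m) and 2 lower (Eif3a and Eif3b), and with the length trend removed Eif3f was higher and Eif3b and Eif3k lower. With only reads of annotated chains counted, Eif3j1 joined the lower calls and Eif3e lost its call.

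The cap complex eIF4F, its cofactors and their relatives were taken as a single group. The group held 25.1% of the members' mean CPM, at 1518 CPM in replicate 1 and 1014 in replicate 2. These sums include the relative Eif4g2, with 466 and 258 CPM. Of the group's 10 tested members 7 were lower in replicate 2 (14.9% of all genes were) and 0 higher (11.1% of all genes). Their median log2 ratio was -0.56, beside -0.18 over all genes. Of the 7 lower calls 4 were left with TMM scaling and 3 with DESeq2 size factors. With the length trend removed Eif4e and Eif4e2 were lower and Eif4g3 higher, though the lengths of Eif4e2 and Eif4g3 rest on a minority of their reads. The most read was Eif4g2 (chromosome 7, 111067750 to 111083030, minus strand), which lacks the eIF4E-binding part of eIF4G, with 498 and 402 reads (362 ± 147 CPM, log2 ratio -0.85, adjusted p = 4.69e-17). The full scaffold Eif4g1 had 211 and 172 reads (154 ± 61.4 CPM, log2 ratio -0.84, adjusted p = 2.63e-07), and its relative Eif4g3 had 40 and 66 (log2 ratio 0.17, not called). Eif4g1 therefore held 84.1% of that pair's reads in replicate 1 (95% interval 78.9 to 88.4) and 72.3% in replicate 2 (66.1 to 77.9). These intervals do not overlap but cover counting error only, and no share over other gene pairs was computed. Few of the reads followed complete chains, 56 and 33 for Eif4g1 and 5 and 3 for Eif4g3. Of the Eif4g3 reads, 5 and 18 were of the class Genomic, and the part of read classes in this difference was not tested. Eif4g2 held 70.2% and 70.0% of the reads of its pair with Eif4g1.

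The helicase of the complex was read mainly from Eif4a2 (chromosome 16, 23107444 to 23114136, plus strand). Eif4a2 had 352 and 423 reads (300.3 ± 40.6 CPM, log2 ratio -0.28, adjusted p = 0.0356), a call that held in 1 of the 5 alternatives. Eif4a1, the form that leads in many dividing cells, had 45 and 61 (log2 ratio -0.11, not called). Eif4a2 thus held 88.7% of the pair's reads in replicate 1 (95% interval 85.1 to 91.6) and 87.4% in replicate 2 (84.1 to 90.2), and 5.94 times the level of Eif4a1 per kilobase. These intervals overlap. The processed pseudogene Eif4a-ps4, whose sequence is 99.9% identical to the Eif4a1 coding sequence, had 37 and 48 reads of its own, so reads of Eif4a1 could be divided between them.

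Eif4h and Eif4b, RNA-binding cofactors that stimulate the helicase, had 171 and 159 reads (131 ± 40.8 CPM, log2 ratio -0.65, adjusted p = 4.74e-04) and 80 and 76 (61.8 ± 18.4 CPM, log2 ratio -0.62, adjusted p = 0.0371). The cap binder Eif4e had 103 and 105 reads (81.8 ± 20.4 CPM, log2 ratio -0.51, adjusted p = 0.0435), and Eif4e3, a relative, 66 and 52 (47.5 ± 20.0 CPM, log2 ratio -0.88, adjusted p = 0.00606). All 4 were lower in replicate 2. The Eif4h call held in 4 of the 5 alternatives, and those of Eif4b, Eif4e and Eif4e3 in 2 each. Eif4e2, a cap binder known for repressing mRNAs, had 58 and 64 reads (log2 ratio -0.40, not called). Eif4e was 1.35 times Eif4e2 and 3.05 times Eif4e3 per kilobase, so the cap binders lay within a few fold of each other, and the germline-named Eif4e1b was at 0.

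Both 4E-binding proteins with reads were higher in replicate 2. Eif4ebp1 (chromosome 8, 27260329 to 27276674, plus strand) encodes a 4E-binding protein that mTORC1 phosphorylates. It had 61 reads in replicate 1 and 170 in replicate 2 (83.1 ± 36.9 CPM, log2 ratio 0.93, adjusted p = 7.28e-05). Its reads relative to those of Eif4e therefore differed. Eif4ebp1 held 37.2% of the pair's reads in replicate 1 (95% interval 29.8 to 45.1) and 61.8% in replicate 2 (55.8 to 67.6). The intervals do not overlap but cover counting error only. No share over other gene pairs was computed to set beside this. Eif4ebp2 had 38 and 124 reads (57.6 ± 31.2 CPM, log2 ratio 1.15, adjusted p = 5.04e-05). Of the reads of Eif4ebp2, 34 in replicate 1 and 121 in replicate 2 were single-exon reads of the class Genomic, and 4 and 3 followed a complete chain. The single-exon model of replicate 1 covers 2338 bases of the last annotated exon, after the coding span (chromosome 10, 61428491 to 61430828, minus strand), and that of replicate 2 is deposited with 1 base there. With so few complete reads, Eif4ebp2 fell under the minimum of 10 when only annotated or only complete chains were counted. The Genomic share moved the same way in the whole libraries, 2.10% and 5.34% of the reads of protein-coding genes and 1.42% and 4.43% of member reads, and its part in the call of Eif4ebp2 was not tested. Eif4enif1, which carries eIF4E to the nucleus and to RNA granules, had 23 and 26 reads (log2 ratio -0.37, not called).

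Later steps were read at unequal levels. Eif5a (chromosome 11, 69916714 to 69921958, minus strand), named as an initiation factor and now known for helping the ribosome past difficult peptide bonds and at termination, had 533 and 793 reads (504 ± 7.69 CPM, log2 ratio 0.03). It was not called, but DESeq2 size factors called it higher (0.25) and removal of the length trend lower (-0.24). Its relative Eif5a2 had 1 read in each library, so Eif5a held 99.8% and 99.9% of the pair. Eif6 (40 and 80 reads), which keeps the ribosomal subunits apart, and Eif5b (32 and 42), the GTPase that joins them, were not called. Eif4a3 (49 and 77 reads), the helicase of the exon junction complex, and Eif1ad (9 and 19), a relative of eIF1A, carry factor names but other roles, and neither was called. Some members share their locus with a gene on the other strand, Banf1 for Eif1ad (88 and 287 reads), Serp1 for Eif2a (42 and 30) and Drg1 for Eif4enif1 (75 and 76), and whether counting used the strand is not given in the labels.

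Most member reads followed an annotated splice chain. The class Known, a read whose introns match an annotated model, held 84.2% of member reads in replicate 1 and 83.0% in replicate 2 (83.6% ± 0.796, n = 2). Chains outside the annotation, made of annotated splice sites in a new combination (NIC) or with an unannotated site (NNC), held 4.07% and 3.15%. Incomplete matches (ISM) and Genomic reads held 11.8% and 13.8%. Over all reads of protein-coding genes the Known shares were 65.0% and 70.8%. There, chains outside the annotation held 24.3% and 11.4%, and ISM and Genomic reads 10.7% and 17.8%. The ISM and Genomic share of the members was thus above that of all such genes in replicate 1 and below it in replicate 2. As a median over genes with 20 or more reads in each library, the 45 such members had 88.3% and 86.3% of their reads in Known chains, beside 84% and 78% over 4044 genes.

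Incomplete reads took the largest shares in the following members with 20 or more reads in each library. ISM reads were 76.8% of the reads of Eif4g1, 70.8% of those of Eif4g3, 47.4% of Eif4b, 44.6% of Eif5b, 36.5% of Eif3i and 32.6% of Eif3c. Of the multi-exon ISM reads of all members, 96.6% in replicate 1 and 94.3% in replicate 2 were of the suffix kind, which lacks the 5′ end. Eif4g3 had no Known read at all. At the other end, 99.1% and 98.3% of Eif1 reads and 97.0% and 99.0% of Eif2s1 reads were Known.

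**Figure D3:**
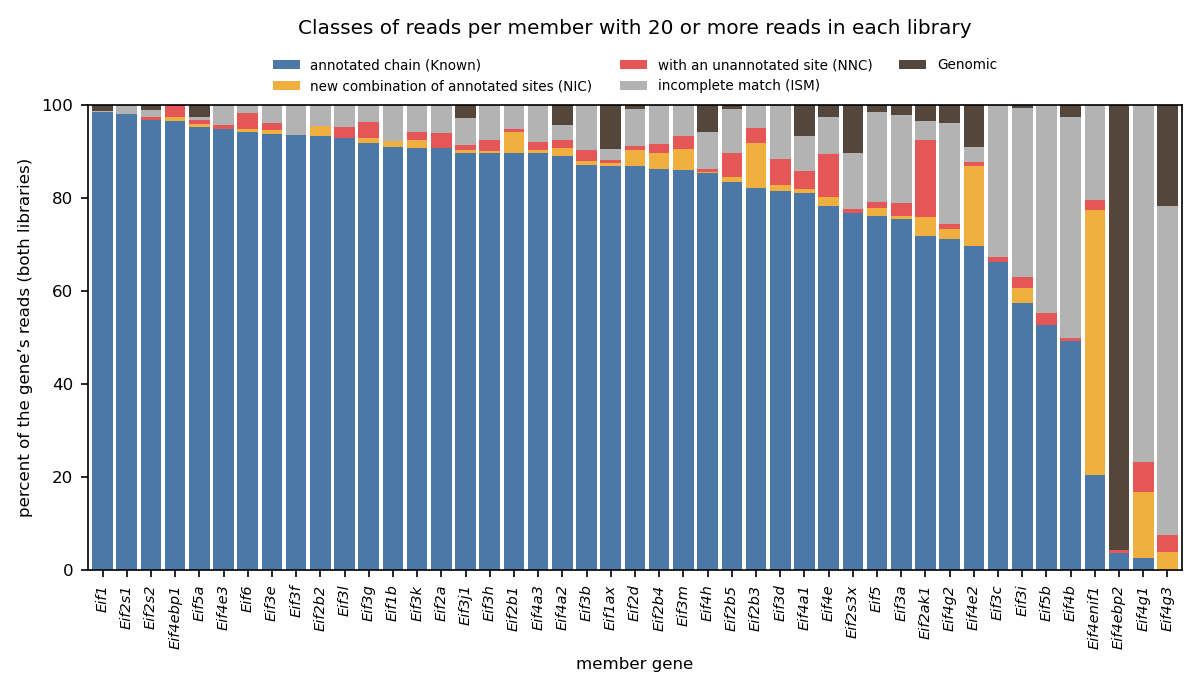
Percent of each member's reads in the 5 transcript classes, over both libraries, for the 45 members with 20 or more reads in each, ordered by the Known share. Most bars are above 80% Known, while Eif4ebp2 is nearly all Genomic and Eif4g1 and Eif4g3 are mostly incomplete.

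A Fisher's exact test set the leading chain's share of complete reads in one library against the other, for genes with 20 or more complete reads in each library and 2 or more chains of 5 or more reads. It called 1.46% of 1844 genes, and 0 of the 15 members that qualified, none of which had an unadjusted p under 0.05. Isoform shares are therefore given for both libraries side by side.

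The cofactor and helicase of eIF4F were each read mainly as 2 transcript forms that differ in coding bases. Eif4h-201, which lacks the 60-base exon shown above, had 116 and 108 reads, 75.3% and 82.4% of complete reads, and Eif4h-205, which has it, 37 and 21 (24.0% and 16.0%). Eif4a2-201 had 236 and 277 reads (69.8% and 73.1%), and Eif4a2-203, with the additional bases CAG, 86 and 81 (25.4% and 21.4%). In both genes the exact 95% intervals of the libraries overlapped. The same 3 letters were the optional bases in Eif4g1, and in each case the stretch keeps the reading frame.

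Eif2b4-201 held 74.5% and 75.3% of that gene's complete reads, and the next form, Eif2b4-202, in which 367 bases of an intron are kept (248 of them annotated as coding), 18.4% and 15.7%. Eif5a-210 held 90.9% and 90.1%, and Eif5a-201, which differs outside the coding sequence by 94 bases, 4.91% and 5.17%. Eif5-202 led Eif5 with 91.1% and 93.5%, and Eif5-212, whose chain lacks an internal stretch of 139 noncoding bases, was the next annotated form with 4.21% and 3.76%. These stretches of Eif5a and Eif5 lie upstream of the leading model's start codon.

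Of the 15 members that qualified for the test, the 12 with most complete reads are described, and in 6 of the remaining 7 a single chain held over 80% in both libraries. Eif1-201 held 99.6% and 98.9%, and Eif1-203, with 148 retained bases, was next with 9 reads over both libraries. Eif2s2-201 held 97.9% and 96.6%, and Eif2s2-202, a retained-intron model, was next with 12 reads. Eif2b5-201 held 93.8% and 92.1%, Eif2b1-201 98.2% and 92.3%, and Eif4e-204 89.7% and 84.3%. In Eif2b5 and Eif2b1 the next chain was unannotated, with 6 reads over both libraries each. Eif3m-201 held 87.8% and 94.6%, and the next chain, with 9 reads over both, skips the 144-base coding exon shown above and keeps the frame. Eif2ak1-201, the exception, held 71.4% and 83.9%.

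**Figure D4:**
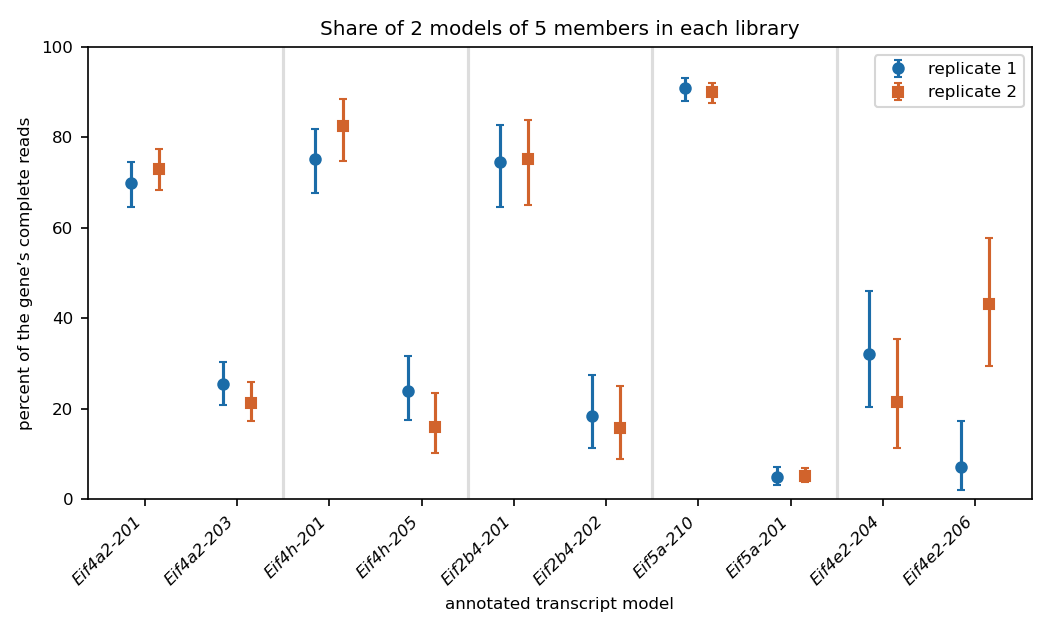
Share of complete reads of 2 annotated models of Eif4a2, Eif4h, Eif2b4, Eif5a and Eif4e2 in replicate 1 (circles) and replicate 2 (squares), with exact 95% binomial intervals as bars. The intervals of the libraries overlap for each model other than Eif4e2-206, which had 7.14% and 43.1%.

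The isoforms of Eif4e2 were more evenly spread. Eif4e2-204 had 18 and 11 reads (32.1% and 21.6%), the share the test compared, and Eif4e2-206, which lacks 210 bases of the first part of that model, 4 and 22 (7.14% and 43.1%). The pair was named after its values were seen, and the second share was not tested.

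The 6 most read chains outside the annotation came from 5 members. The leading complete chain of Eif4g1 was itself unannotated, with 33 exons and 18 and 8 reads, and the third on this list was another Eif4g1 chain of 33 exons with 10 and 6 reads. Both use annotated splice sites in a new combination and differ from each other by the bases CAG shown above. Annotated chains took 2.84% and 2.33% of all Eif4g1 reads. The second was a 4-exon chain of Eif4e with an unannotated site, 8 and 11 reads, that holds 392 bases (chr3:138550327-138550718) not coding in the annotation.

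A chain of Eif2ak1 with 7 and 8 reads removes 602 bases (chr5:143901855-143902456) from the last part of the gene, 32 of them coding, through an intron with both sites unannotated. The most read chain of Eif4enif1 over both libraries was unannotated, with 9 and 4 reads, and holds 195 noncoding bases (chr11:3202798-3202992) absent from the nearest annotated model, Eif4enif1-203, which had 1 and 9. An Eif4e2 chain with 9 and 3 reads closed the list. All 6 were read in both libraries. The Eif4e chain held 8.25% and 12.4% of that gene's complete reads.

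Genes around initiation were taken from 4 lists. In the mTORC1 branch, 2 of 14 tested genes were higher in replicate 2 and 6 lower (median log2 ratio -0.71, beside -0.18 over all genes, of which 11.1% were higher and 14.9% lower). The counts of the other 3 lists lie near or below these shares. None of the list counts was repeated with other scalings or with the length trend removed. Mknk2, a kinase of eIF4E, led that list with 753 and 444 reads (494 ± 296 CPM, log2 ratio -1.30, adjusted p = 8.47e-52), and Tsc1, a brake on mTORC1, had 37 and 453 (log2 ratio 3.05, adjusted p = 5.75e-60), of which 35 and 452 were single-exon Genomic reads. Rheb, the activator of mTORC1, had 142 and 225 reads (not called), and the ribosomal protein Rps6 102 and 202 (log2 ratio 0.44, adjusted p = 0.0465). Of the integrated stress response list, 0 of 9 tested genes were higher and 1 lower: Abcf1 had 124 and 146 reads, Bzw1 107 and 104 (log2 ratio -0.58, adjusted p = 0.0194), Bzw2 87 and 88 and Dnajc3 49 and 48.

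Among 15 tested poly(A) and cap partners 1 was higher and 1 lower, with a median log2 ratio of 0.03. Paip2, which holds back the poly(A)-binding protein, had 227 and 624 reads (306 ± 133 CPM, log2 ratio 0.91, adjusted p = 5.00e-16), and Pabpc4 (93 and 183), Mcts1 (29 and 68) and Pabpc1 (30 and 36) were not called. The lower one was Dhx29 (17 and 7). Of 13 tested elongation and termination genes 0 were higher and 2 lower, Eef2 and Gspt1. Eef1g had 461 and 679 reads, Eef2 355 and 394 (292 ± 55.8 CPM, log2 ratio -0.39, adjusted p = 0.00177), the muscle form Eef1a2 194 and 342 and Eef1d 130 and 211.

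The libraries also differed in tissue markers, given here as measured values whose part in the differences above was not tested. Summed skeletal muscle markers were 192807 CPM in replicate 1 and 218513 in replicate 2, with all 7 read in both. Slow-fibre markers were 863 and 6945 CPM, tendon markers 34.6 and 314, fibroblast markers 4019 and 2115, blood markers 990 and 345 and adipocyte markers 327 and 86.7. The leukocyte list was at 14.0 and 15.4 CPM, the endothelial list at 57.0 and 21.8 and the nerve list at 118 and 73.2. Krt14, Krt5, Snap25 and Apoa1 were at 0 in both libraries. In bulk tissue, fewer cells of a type and less RNA per cell cannot be told apart.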

How the data were processed

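Long-read RNA libraries of 2 female mice (1 group) were used. The notes deposited with the files name mm10 and GENCODE M21, and per the file headers the transcript models come from TALON. No source used here names the aligner, the platform or tool versions. The authors deposited raw counts per transcript model, with no normalization. Counts were summed per gene, CPM used all mouse reads without spike-ins, and ratios used a pseudocount of 0.5. Models of the libraries were matched by intron chain, single-exon models by identifier; unannotated single-exon models carry library-specific names and some in replicate 2 are deposited with 1 or 7 bases, whose extents were not used. Gene spans came from the M21 annotation, since 16110 spans in the deposited models differed from it. Members, lists and tests were chosen with earlier results of these data known. Both animals carry 1 donor record, and p-values measure only the difference between these libraries.

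Every member was named; full values went to the 20 highest by mean CPM and to called members, isoforms to the 12 with most complete reads among the 15 that qualified for the chain test, and to the 6 most read unannotated chains and the 4 highest genes of each list. With 1 library per animal and no replicate of either, edgeR's quasi-likelihood test was not possible, so Fisher's exact test was used. Intervals (exact Clopper-Pearson, 95%) and floors (3 reads) cover counting error only. Length was that of the most read complete model (annotated, NIC or NNC). For Eif4ebp2 this is 5784 bases, which its single-exon reads do not have. For Eif4g3 it is 6708 bases, with 5 and 3 complete reads. For Eif4g1 it is 5454 bases, from an unannotated chain with 18 and 8 of 56 and 33 complete reads. For Eif4e2 it is 1119 bases, from a model with 18 and 11 of 56 and 51 complete reads. Alternatives changed scaling, read classes, minimums, thresholds and the length trend (lowess, fraction 0.4). Tests were checked on simulated data that held counting error only, with no spread between animals. Tools were Python 3.11.15, scipy 1.17.1, statsmodels 0.14.6, R 4.3.3, edgeR 4.0.16 and DESeq2 1.42.0.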

Additional observations from a re-analysis of the deposited data

Results flagged for a closer look

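Reads stood outside the member genes at 2 places. The processed pseudogene Eif4a-ps4 (chromosome 1, 60703932 to 60705149), whose transcript is 99.9% identical to the coding sequence of Eif4a1, had 37 reads in replicate 1 and 48 in replicate 2, above the 3 reads that a count of 0 allows. Unannotated antisense loci over 32 members held 51 reads in replicate 1 and 172 in replicate 2, with Eif4g3 (20 and 39) and Eif4e (1 and 23) the most read in replicate 2.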

How the results depend on the processing

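The summed log2 ratio of the members, -0.08, changed sign with complete chains alone (0.036), TMM (0.088) and DESeq2 size factors (0.14), and moved to -0.19 with Known reads, -0.22 with the 20 most read genes left out of the total and -0.23 without Eif1. The members' share of mouse reads, 0.504%, moved to 0.643% with Known reads, 0.532% with complete chains, 0.882% without the 20 most read genes in the total, 0.420% without Eif4a1, Eif4a2 and Eif5a and 0.433% without Eif1; with each replicate left out it was 0.490% to 0.519%. The Known share of member reads was 87.3% as a median over members and 83.0% to 84.2% with a replicate left out. The NIC and NNC share, 3.61%, was 5.88% with classes rebuilt from splice sites, 2.90% as a median over members and 3.15% to 4.07% with a replicate left out. The incomplete and Genomic share, 12.8%, was 10.5% rebuilt, 8.0% as a median and 11.8% to 13.8% with a replicate left out.

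The 18 members called became 11 with the length trend removed, 6 of them among the 18, and 0 when edgeR's exact test assumed a dispersion of 0.04; other minimums, classes, scalings and the threshold of 0.01 gave 12 to 21. The leading-chain Fisher's exact test called 0 members in each alternative, with 3 at an unadjusted p under 0.05 when incomplete matches were included and 0 otherwise. Over single members' ratios, leaving out the pseudocount, which does not enter the test, 153 of the values under the alternatives kept direction and call, 33 lost the call, 20 gained it with the same direction, and 30 changed sign, all in members that the test had not called. The cause of these changes was not tested. The member and isoform tests could not be run with a replicate left out, since each compares the 2 libraries. No paired analysis was possible because the labels give 1 group. Depth limits the least read tested members: the log2 ratio of Eif1a had a 95% interval of -2.41 to -0.25 and that of Eif3j2 one of -1.71 to 2.49.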
